A study of Mus musculus with 7 samples.

Results

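Alternative transcript ends are last exons that compete within a gene: RNAs that start alike can be spliced to different last exons and cut and polyadenylated there. The members described here were the last-exon events in genes for which at least 2 different last exons were listed over the 7 libraries. They numbered 8704 ends in 3190 genes, which is 49.0% of the 17752 ends and 26.1% of the 12238 genes with any listed end. Most of these genes, 1843, had 2 ends, 777 had 3, 332 had 4, and the largest number was 11.

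The cells were wild-type neural cells derived from the mouse embryonic stem line B6G-2. After 6 days as embryoid bodies, the cells were taken to progenitors in medium with the growth factors bFGF and EGF, and from day 14 they differentiated in BrainPhys medium with B27. The cultures were then left as control or exposed for 1 day to chlorpyrifos, DDT, rotenone, carbaryl, deltamethrin or imidacloprid, and total RNA was sequenced. All groups shared the line and the differentiation steps, and the labels name neither a dose nor a vehicle. With 1 library in each group, the differences below could not be set against a spread between replicates, and no test was made.

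Cleavage and polyadenylation complexes recognise a short signal, most often AATAAA or ATTAAA in the DNA, a little upstream of the cut. A change of last exon can replace the C terminus of the protein, or leave the protein as it is and replace the 3′ UTR, the part of the RNA that carries binding sites for microRNAs and RNA-binding proteins. Nervous tissue is known for its wide use of alternative last exons and long 3′ UTRs. In these data an end was identified by the inner boundary of its last exon, so that several cut sites within 1 last exon counted as 1 end. Upstream and downstream, and proximal and distal, are said of this inner boundary, not of the cut: an end with the downstream acceptor can be cut at the same place as the other end, or further upstream.

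The sequences below show the signal at the main pair of ends of Utp6 and Farsb, which exchanged one end for the other between libraries. They also show it at the main pair of ends of Ewsr1 and Qk, whose shares varied, and at 3 ends of Lamp2, whose order was the same in all libraries. Utp6, Farsb, Ewsr1 and Lamp2 each had a further annotated end upstream of those shown. Their upstream end is therefore named so among the ends shown. Each sequence is a stretch of 30 bases of a GENCODE M21 transcript (build GRCm38), printed 5′ to 3′ on the strand of the gene, with the signal in capitals.
Utp6 upstream end, chr11:79933957-79933986, minus strand: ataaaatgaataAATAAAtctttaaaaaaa
Utp6 downstream end, chr11:79932322-79932351, minus strand: accagcactgccAATAAAccataccaagtc
Farsb upstream end, chr1:78425091-78425120, minus strand: gcgttaatgtttAATAAAgtgaaatgtgct
Farsb downstream end, chr1:78417980-78418009, minus strand: gatgagttggtaAATAAAgcaagctcttcc
Ewsr1 upstream end, chr11:5071417-5071446, minus strand: tcccttgagaaacttagttgaatAATAAAc
Ewsr1 downstream end, chr11:5069699-5069728, minus strand: tttttttttttaAATAAAattccaaatgtt
Qk middle end, chr17:10210189-10210218, minus strand: ataattgaaaaagcAATAAAcatttattga
Qk most downstream end, chr17:10202609-10202638, minus strand: aattggatactgATTAAAacattacagtgt
Lamp2 upstream end, chrX:38419513-38419542, minus strand: tgcttctaaatcAATAAAgattcttttatt
Lamp2 middle end, chrX:38405067-38405096, minus strand: cttactggaattAATAAAcactgcttgacc
Lamp2 downstream end, chrX:38401370-38401399, minus strand: tgtattgattatATTAAAcctgatatttct

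Each of these 11 ends held 1 of the signals, and in the upstream end of Ewsr1 it lay 1 base before the annotated transcript end. Windows were taken from a transcript with a signal where there was one, so these 11 do not stand for all ends. No signal was found at the upstream end of Cdkn3 or the downstream end of Tmem208, which are described below. Ends of a gene could also share a signal. In the annotation, both last exons of Rfc4 hold the same signal, and so do the most upstream and the most downstream last exon of Tardbp, whose annotated transcripts end at 148616726 and 148616725. These pairs differ in the splice acceptor and not in the annotated cut.
Rfc4 both ends, chr16:23113953-23113982, minus strand: ccagttactataAATAAAtggccagaccac
Tardbp most upstream and most downstream ends, chr4:148616729-148616758, minus strand: tattttgcttcaAATAAActtatttgaaaa

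The deposited tables listed between 13518 and 13772 ends per library, of which 6412 to 6521 were members, and members held 45.7% to 46.2% of the FPKM of all ends. FPKM, fragments per kilobase of transcript scaled to the size of the library, is an abundance estimate, and the number of fragments behind each value was not given. Of fixed marker lists, the summed FPKM of annotated ends over the libraries was 1029 to 1270 for neural progenitor genes, 169 to 193 for astrocyte genes, 116 to 177 for oligodendrocyte-lineage genes, 42.2 to 53.6 for neuron genes, 25.7 to 36.5 for fibroblast genes and 1.19 to 1.70 for pluripotency genes. Sums over annotated starts differed: 1255 to 3931, 198 to 234, 24.9 to 29.8, 213 to 262, 24.3 to 36.1 and 0.739 to 1.60 in the same order. The neuron gene Map2, for example, had a mean of 0.0673 FPKM at its ends and 146 at its starts, so these sums do not rank the cell types. An annotated end was listed for 5 of 8 progenitor, 6 of 8 astrocyte, 7 of 8 oligodendrocyte-lineage, 7 of 8 neuron, 8 of 8 fibroblast and 3 of 6 pluripotency genes. Sox2, Sox1, Tubb3, Olig1, Zfp42, Dppa5a and Tdgf1 had neither an annotated start nor an annotated end listed. Only spliced transcripts of the annotation were matched, so a gene without introns could have neither. That does not account for a gene with introns, such as Tubb3, Zfp42, Dppa5a and Tdgf1, and why these were unlisted was not examined. A missing start and end is not read as missing RNA in either case. In bulk RNA, fewer cells of a type and less RNA per cell cannot be told apart.

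Members fell into classes when the inner boundary of each last exon was compared with the GENCODE M21 annotation. Of the 8704 ends, 6930 (79.6%) were annotated last exons of the same gene and carried 91.7% of the members' FPKM. A further 382 ends, in 184 genes, were annotated to another gene. The remaining ends matched no annotated last exon, 741 on the strand of the gene and 651 on the opposite strand. The classes differed in how many libraries listed them. Among annotated ends that reached 1 FPKM in some library, 87.4% of 3719 were listed in all 7 libraries and 1.43% in 1. Among unannotated ends of both strands together that reached 1 FPKM, 5.89% of 594 were listed in all 7 libraries and 50.3% in 1.

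**Figure D1:**
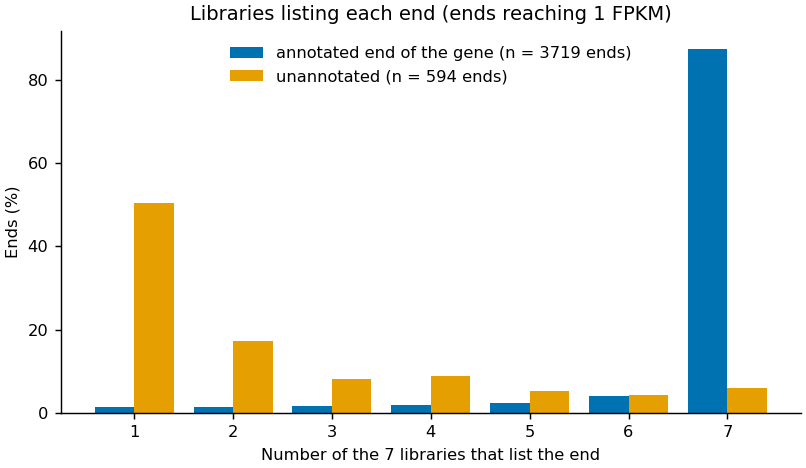
Number of libraries listing each end that reached 1 FPKM in some library (horizontal axis, 1 to 7) against the percent of ends of the class (vertical axis), for 3719 annotated ends and 594 unannotated ends. Annotated ends stand at 7 libraries (87.4%) and unannotated ends at 1 library (50.3%).

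Unannotated ends could carry almost the whole of a gene in 1 library and be unlisted in others. This was seen in abundant housekeeping genes. For Acat1, which encodes a mitochondrial thiolase, the annotated end stood at 23.7 FPKM in control, 31.9 with DDT, 32.4 with rotenone, 31.7 with carbaryl, 29.1 with deltamethrin and 33.8 with imidacloprid, but at 0.297 with chlorpyrifos. The chlorpyrifos library alone listed an unannotated end there, at 49.5 FPKM, beside a total of 49.8 FPKM over the gene's annotated starts. Ssr3, a subunit of the translocon-associated complex of the endoplasmic reticulum, showed the same form with DDT. Its annotated end stood at 117 FPKM in control, 117 with chlorpyrifos, 120 with rotenone, 123 with carbaryl, 119 with deltamethrin and 123 with imidacloprid, and at 1.58 with DDT, where an unannotated end held 112 FPKM. The start total of Ssr3 in the DDT library was 114 FPKM, against 117 to 123 in the others, while its listed end changed. Start and end totals come from the same deposited FPKM estimates. In Acat1 with chlorpyrifos and Ssr3 with DDT the listed ends together came close to the start total. A start total is therefore not an independent measure of the gene's level.

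Slc25a4, which encodes the heart and muscle form of the mitochondrial ADP/ATP carrier, had 3 such ends in different libraries. Its annotated end held 320 FPKM in control and 326 with chlorpyrifos, 146 with rotenone, 36.7 with deltamethrin, and under 1 FPKM with DDT (0.775), carbaryl (0.311) and imidacloprid (0.204). An unannotated end held 369 FPKM with DDT, 379 with carbaryl and 391 with imidacloprid, another 253 with rotenone, and another 372 with deltamethrin. The start total ran from 321 to 409 FPKM over the 7 libraries. The same form was listed with carbaryl for Calr, the chaperone calreticulin, whose annotated end stood at 11.3 FPKM against 191 to 317 elsewhere, and for Rpl39, a ribosomal protein, at 7.70 against 268 to 300. With deltamethrin it was listed for Ndufs4, a subunit of respiratory complex I, at 1.61 FPKM against 21.9 to 31.5. In control it was listed for Tk1, thymidine kinase, at 12 FPKM against 30.8 to 48.1.

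Over genes with a mean end total of at least 5 FPKM and a listed annotated start, an unannotated end held at least 50% of a gene in 146 gene and library combinations, from 58 genes and 73 ends. Of those 73 ends, 34 were listed in 1 library. The combinations were spread over the libraries, with 24 in control, 16 with chlorpyrifos, 22 with DDT, 15 with rotenone, 25 with carbaryl, 21 with deltamethrin and 23 with imidacloprid. In 52 of them (35.6%) the end lay within 0.3 on the log2 scale of the gene's start total in the same library. In 115 of them, from 53 genes, the start total was at least 5 FPKM in that library or in the median of the other 6, and in 64 of the 115 (55.7%) these values lay within 0.3 of each other. Whether these unannotated ends are last exons used in the cells was not tested.

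The share of an end is its FPKM as a percent of the summed FPKM of all ends of the gene in the same library, and the main end of a gene is the one with the highest mean share. Of the 3190 genes, 1859 had a mean end total of at least 5 FPKM, and the following counts rest on these. One end dominated in most of them: the median mean share of the main end was 97.4%, and it was at least 90% in 1406 genes (75.6%). The range of the main-end share over the 7 libraries had a median of 6.61 percentage points. It reached 20 points in 447 genes (24.0%) and 50 points in 146, and the leading end was not the same in all 7 libraries in 175 genes. An unannotated end, or one annotated to another gene, reached a 20% share in 138 of the 447 genes and in 71 of the 146. With annotated ends of the same gene alone, 1381 genes were left, with a median range of 6.33 points, 326 genes (23.6%) at 20 points or more, 85 at 50 or more, and 119 whose leading end was not the same throughout.

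Each insecticide library was compared with control by the number of genes whose main-end share differed by at least 20 points. Over all ends the count was 146 genes with chlorpyrifos (7.93% of genes compared), 152 with DDT (8.23%), 147 with rotenone (7.98%), 160 with carbaryl (8.67%), 162 with deltamethrin (8.78%) and 148 with imidacloprid (8.02%). The 6 comparisons share the control library. The 15 pairs of exposed libraries, compared in the same way, gave 126 to 160 genes (6.82% to 8.67%), so the pairs with control lay within or just above the spread between exposed libraries. Over annotated ends, the counts against control were 107 with chlorpyrifos (7.78%), 109 with DDT (7.92%), 113 with rotenone (8.22%), 110 with carbaryl (8.0%), 115 with deltamethrin (8.37%) and 114 with imidacloprid (8.3%), beside 91 to 119 in exposed pairs.

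A stricter set kept the genes whose annotated end total lay within 0.3 on the log2 scale of the annotated start total in every library, which left 823 genes. Both totals come from the same FPKM estimates, so their agreement is not an independent check. In this set the median range was 4.60 points, and 127 genes (15.4%) had a range of 20 points or more. The counts against control were 35 with chlorpyrifos (4.25%), 36 with DDT (4.37%), 40 with rotenone (4.86%), 39 with carbaryl (4.74%), 48 with deltamethrin (5.83%) and 46 with imidacloprid (5.59%), beside 28 to 48 in exposed pairs. In none of the 3 sets did the libraries with an insecticide differ from control by a count that stood clear of the counts among themselves.

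**Figure D2:**
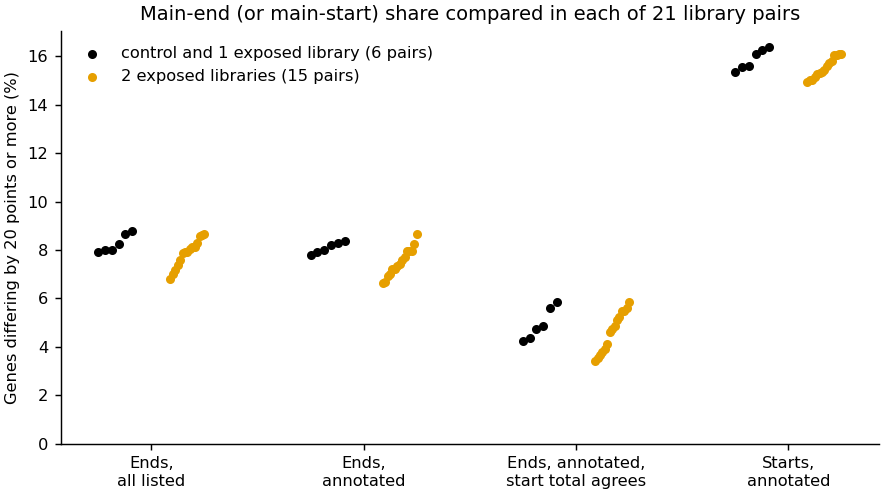
Percent of genes whose main-end share differed by 20 points or more (vertical axis) in each pair of libraries, for 3 sets of ends and for annotated starts; each point is 1 pair, black for 6 pairs with control and orange for 15 pairs of exposed libraries. For all listed ends the control pairs run from 7.93% to 8.78% and the exposed pairs from 6.82% to 8.67%.

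Transcript starts, counted by the same rules, varied more than ends. Of genes with 2 or more annotated starts, 4630 passed the same level, their median range of the main-start share was 13.4 points, and 41.1% had a range of at least 20 points, against 6.33 points and 23.6% for annotated ends. The main-start share differed from control by at least 20 points in 758 genes with chlorpyrifos (16.4%), 744 with DDT (16.1%), 721 with rotenone (15.6%), 720 with carbaryl (15.6%), 710 with deltamethrin (15.4%) and 752 with imidacloprid (16.3%), and in 690 to 744 genes in exposed pairs, so that the counts with chlorpyrifos and imidacloprid lay above those of the exposed pairs. The tables listed 26450 alternative starts in 7812 genes, beside the 8704 alternative ends in 3190 genes. The part of the number of starts per gene in this difference was not tested.

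The main end was usually the one farthest downstream. Among annotated ends it was the most distal of its gene in 1161 of 1381 genes (84.1%), the most proximal in 102 and in between in 118. In the 742 genes with exactly 2 annotated ends it was the distal one in 651 (87.7%). The median distance between the inner boundaries of the main end and of the next most used end was 4780 bases. The last exons of the main end and the next overlapped in 211 genes. Their outer ends lay within 50 bases of each other in 149 genes, as in Rfc4.

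Main ends also differed from the other ends in features that the share did not use. A protein-coding transcript ended in 98.0% of 1381 main last exons and in 42.0% of 2471 other last exons, and the median length of the last exon was 1061 bases for main ends and 379 for the others. AATAAA or ATTAAA was present in the last 50 bases of 79.1% of the 1377 main ends that had a transcript with a complete 3′ end. The share was 38.3% of 522 other ends with a mean share of at least 5%, and 23.7% of 1727 other ends below that. Over all 65182 annotated last exons of spliced transcripts with such a transcript it was 41.7%. The reverse complements TTTATT and TTTAAT were present in 14.6%, 10.2%, 8.11% and 8.28% of the same windows. AATAAA alone was present in 64.5% of main ends. A match says that these letters are in the window, and no match says no more than that they are not. Ends of retained-intron and other noncoding transcript models were included as the annotation gives them.

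The range of the main-end share was larger where more ends competed and where levels were low. A range of 20 points or more was found in 14.8% of genes with 2 annotated ends, 30.1% of those with 3 or 4 and 51.8% of those with 5 or more. By level, it was found in 32.5% of genes with a mean end total of 5 to 10 FPKM and in 14.1% of those at 50 FPKM or more. It was found in 49.7% of the 163 genes whose next most used end lay downstream of the main end and in 20.1% of the 1218 in which it lay upstream. It was found in 39.3% of genes with overlapping last exons and in 20.8% of genes with separate ones. These classes are not independent of each other.

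**Figure D3:**
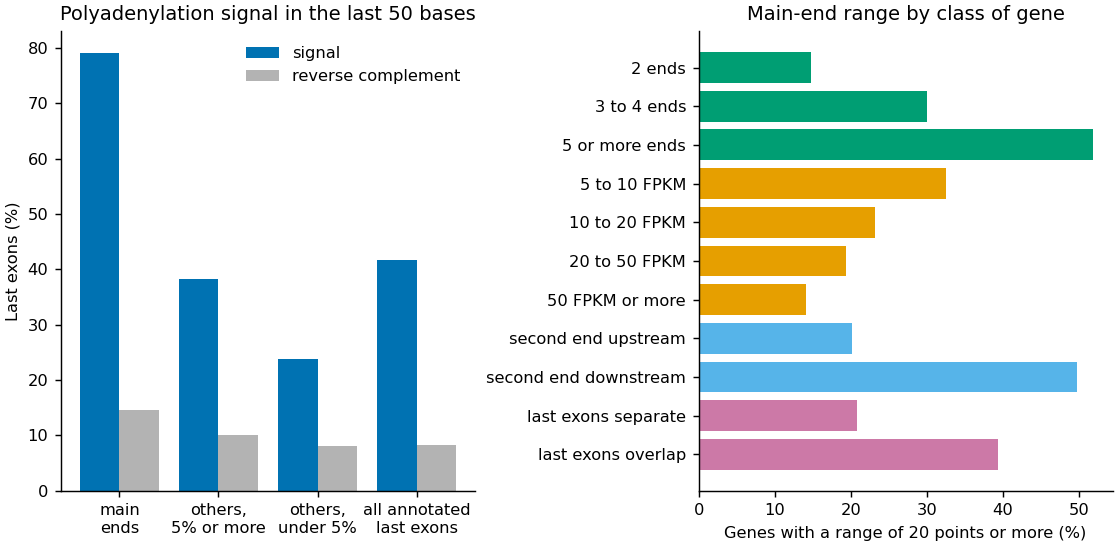
Left, percent of last exons (vertical axis) with a polyadenylation signal, or with its reverse complement, in the last 50 bases of the transcript that reaches farthest downstream; 79.1% of main ends have the signal. Right, percent of genes (horizontal axis) with a main-end range of 20 points or more by number of annotated ends, mean end total, side of the next end and overlap; the lowest bar is 14.1% and the highest 51.8%.

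Among the genes of widest range, some exchanged one annotated end for another at a similar start total, while others lost or gained an end. Utp6 (chr11:79932321-79962390) encodes a component of the complex that processes the small ribosomal subunit RNA. Its upstream end held 28.3 FPKM in control, 26.8 with chlorpyrifos and 27.8 with imidacloprid, but 0.578 with DDT, 2.93 with rotenone, 3.08 with carbaryl and 1.53 with deltamethrin. Its downstream end, 3395 bases further, was listed in those 4 libraries alone, at 24.1 FPKM with DDT, 19.7 with rotenone, 20.3 with carbaryl and 21.7 with deltamethrin. The start total stayed between 22.8 and 28.4 FPKM in all 7 libraries. The upstream last exon holds 152 coding bases and the downstream one none, so the annotated transcripts differ in their coding ends. In this gene control, chlorpyrifos and imidacloprid thus lay on one side and the other 4 libraries on the other. Utp6, like Cdkn3 and Scaf4 below, was chosen for its wide range over these same libraries. How many genes split the libraries in the same way was not counted, so such a split describes the gene alone.

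Farsb (chr1:78417975-78488897), the beta subunit of phenylalanyl-tRNA synthetase, changed ends in the deltamethrin library. Its downstream end held 22.2 FPKM in control, 16.8 with chlorpyrifos, 17.6 with DDT, 15 with rotenone, 18.2 with carbaryl and 17.9 with imidacloprid, and it was not listed with deltamethrin. The upstream end, 7123 bases away, held 18.7 FPKM with deltamethrin and 0.0622 to 2.32 in the other 6 libraries. The start total was 15.4 to 22.7 FPKM, and with deltamethrin it was 19.1, inside the range of the others.

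Cdkn3 (chr14:46760541-46771669) encodes a phosphatase that acts on cyclin-dependent kinases. Its downstream end held 10.5 FPKM in control, 11.3 with DDT, 11.4 with rotenone, 11.2 with deltamethrin and 13.8 with imidacloprid, against 0.293 with chlorpyrifos and 1.68 with carbaryl. The upstream end was listed in those last 2 libraries alone, at 7.17 FPKM with chlorpyrifos and 8.67 with carbaryl. It lies 1568 bases upstream, and its annotated last exon holds no coding bases, while the downstream one holds 84. The start total was 7.49 FPKM with chlorpyrifos and 10.4 to 14.0 in the others. Chlorpyrifos and carbaryl thus stood apart from the other 5 libraries at both ends.

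Tardbp (chr4:148612382-148627019) encodes TDP-43, an RNA-binding protein that binds the 3′ UTR of its own RNA and so limits its own amount. Its downstream end held 103 FPKM in control, 92.6 with DDT, 45.0 with rotenone, 61.3 with carbaryl, 55.4 with deltamethrin and 105 with imidacloprid, against 0.482 with chlorpyrifos. The end 861 bases upstream, which holds 53 coding bases, stood at 18.2 FPKM in control, 20.6 with chlorpyrifos, 22.7 with DDT, 17.4 with rotenone, 25.2 with carbaryl and 14.5 with imidacloprid, against 0.472 with deltamethrin. The share of the downstream end was thus 2.28% with chlorpyrifos, 99.1% with deltamethrin and 70.8% to 84.9% in the other 5 libraries. Here the start total moved too: it was 23.7 FPKM with chlorpyrifos, 64.3 with deltamethrin and 98.2 to 130 in the others, so the chlorpyrifos value is a loss of the downstream end with no rise of the upstream one.

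**Figure D4:**
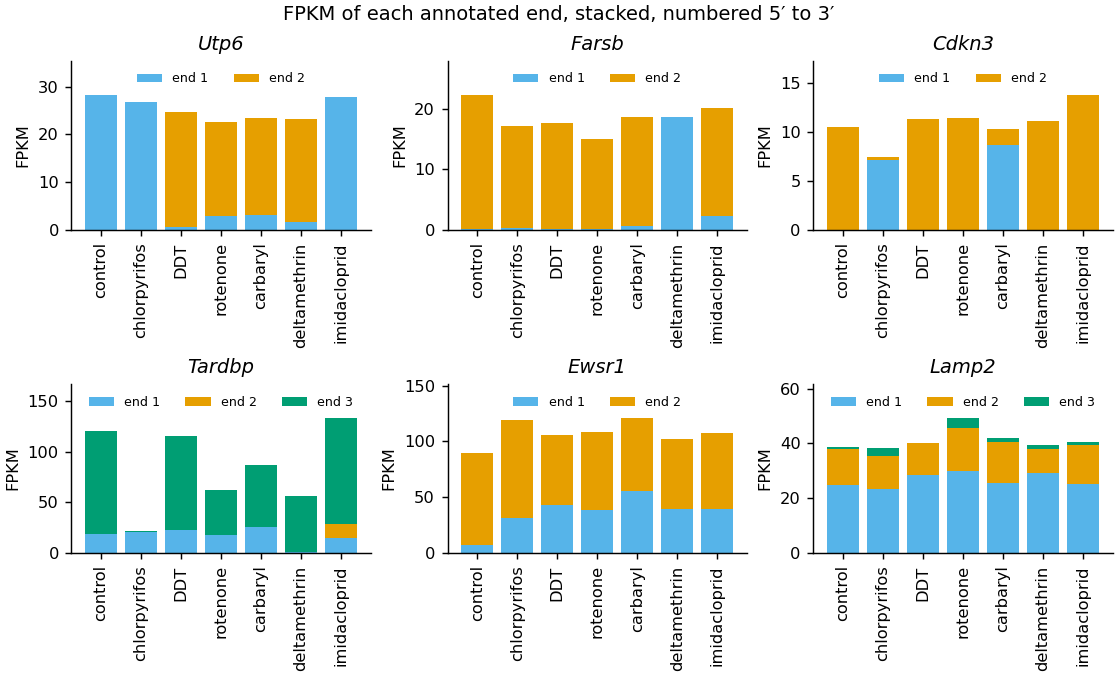
FPKM (vertical axis, stacked) of each annotated end with a share of at least 5% in some library, numbered 5′ to 3′ along the gene, in each of the 7 libraries (horizontal axis), for 6 genes. Utp6 and Farsb exchange ends at a similar total, and Cdkn3 changes ends with chlorpyrifos and carbaryl, at its lowest total with chlorpyrifos. Tardbp loses its downstream end with chlorpyrifos (0.482 FPKM), Ewsr1 has 6.60 FPKM at its upstream end in control, and Lamp2 keeps the order of its ends.

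Other genes had changed shares mainly in 1 library, and not always as an exchange of one end for the other. Rfc4, a subunit of the clamp loader of DNA replication, used its downstream acceptor at 83.2% to 99.2% in 6 libraries and at 11.9% with carbaryl. Its start total was 8.35 FPKM with carbaryl and 19.1 to 25.5 elsewhere, and the 2 acceptors lie 196 bases apart. Tmem208, a membrane protein of the endoplasmic reticulum, used its upstream end at 86.7% to 99.2% in 6 libraries and at 23.3% with rotenone. There the downstream end rose from 0.222 FPKM in control to 19.6, and the start total was 25.6 against 24.6 to 31.0 FPKM elsewhere. Cdc26, a subunit of the anaphase-promoting complex, had a single end in 6 libraries and 2 with carbaryl, where the upstream end held 4.79 FPKM and the downstream one 9.21. Scarb1, a receptor for high-density lipoprotein, used its downstream end at 48.4% with DDT, 79.2% with imidacloprid and 93.6% to 99.4% elsewhere. Trip12, a ubiquitin ligase, had its downstream end at 100% in 6 libraries and at 56.4% with imidacloprid.

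In other genes the libraries took several levels. The upstream end of Mrpl20, a protein of the mitochondrial ribosome, held 100% in control, rotenone and deltamethrin, 65.9% with chlorpyrifos, 50.7% with DDT, 21.4% with carbaryl and 70.8% with imidacloprid. The upstream acceptor of Psmd4, a ubiquitin receptor of the proteasome, held 90.3% in control, 92.5% with DDT, 85.8% with deltamethrin, 59.9% with chlorpyrifos, 36.5% with rotenone, 17.9% with carbaryl and 38.6% with imidacloprid. For Psmd4 the low shares came with more signal at the downstream acceptor, 44.8 FPKM with carbaryl and 40.2 with imidacloprid against 2.29 in control. Pop4, a subunit of the RNases P and MRP, kept its distal end between 22.3 and 26.0 FPKM in all 7 libraries. An upstream end was added with carbaryl (27.5 FPKM), deltamethrin (25.8) and imidacloprid (26.4), against 0.0835 to 0.970 in the other 4 libraries, and the start total rose with it from 23.6 in control to 51.1 to 52.2. In Pop4, therefore, a share near 50% stood for an added end and not for a loss of the main one.

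Cdk5rap2, a centrosome protein, kept its most distal end between 5.83 and 10.7 FPKM in all 7 libraries, while its share ran from 19.7% with DDT to 96.6% with deltamethrin. The share fell where an upstream end was listed, at 36.2 FPKM with DDT, 15.5 with rotenone, 6.39 with carbaryl and 7.02 with imidacloprid, and that end was not listed in control, chlorpyrifos or deltamethrin. The start total of Cdk5rap2, 5.83 to 10.7 FPKM, stayed at the level of the distal end and did not take up the added 36.2 FPKM. In Cenpt, a centromere protein, the distal acceptor held 12.1 FPKM in control, 10 with chlorpyrifos, 13.3 with DDT, 7.82 with rotenone, 8.38 with carbaryl, 1.5 with deltamethrin and 9.16 with imidacloprid. Its upstream acceptor held 11.9 FPKM in control and 12.1 with deltamethrin, against 0.191 to 1.13 in the other 5. In Pck2, the mitochondrial form of phosphoenolpyruvate carboxykinase, the end with the most downstream acceptor was not listed in control or deltamethrin and reached 10.5 FPKM with rotenone, but its start total, 0.36 to 1.1 FPKM, was far below its end total in every library.

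**Figure D5:**
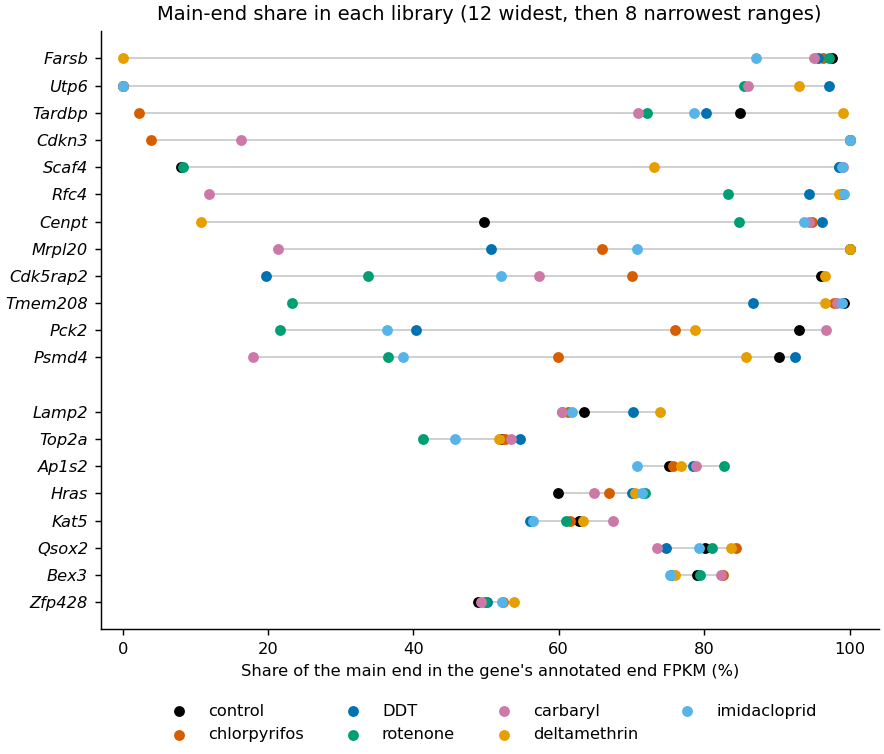
Share of the main end in the gene's annotated end FPKM (horizontal axis, %) in each of the 7 libraries (points), with a line from the lowest to the highest, for the 12 genes of widest range and for the 8 of narrowest range among those with a mean share of 50% to 80%. Farsb spans 97.6 points and Zfp428 4.86 points.

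Control was compared with the 6 exposed libraries as a set. Among annotated ends with a share in all 7 libraries (1363 genes), the control share lay outside the range of the other 6 by at least 20 points in 14 genes. The same count was 4 for chlorpyrifos, 12 for DDT, 14 for rotenone, 14 for carbaryl, 7 for deltamethrin and 7 for imidacloprid, so control was not alone in its count. Over all ends the counts were 23 for control, 24 for carbaryl, 21 for rotenone and 11 to 16 for the other 4, and in the set with agreeing starts 6 for control, 7 for carbaryl, 5 for rotenone and 1 to 4 for the others. In 13 of the 14 genes control was the lowest; since the main end is chosen by its mean share, single low libraries are more likely to be counted than single high ones.

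The genes in which control stood farthest from the rest were named by rule. The vacuolar ATPase accessory protein gene Atp6ap1 (chrX:74297097-74304721) used its most downstream acceptor at 42.8% in control and at 93.2% to 98.1% in the exposed libraries. In control that acceptor held 21.9 FPKM and another, 66 bases upstream, 21.3, whereas the latter was at 0.969 or less elsewhere. The main end of Srpk1, a kinase of splicing factors, held 38.0% in control and 78.2% to 96.2% elsewhere, at a start total of 8.45 FPKM in control and 12.4 to 19.1 elsewhere. The middle end of Tmem209, a nuclear envelope protein, held 25.4% in control and 74.1% to 99.5% elsewhere. Ext2, an enzyme of heparan sulfate synthesis, had its main end at 41.8% in control and at 67.9% to 89.5% elsewhere.

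In Ewsr1 and Ezh2 control was highest. In Ezh2, however, control stood no farther from the next library, rotenone, than carbaryl, the lowest, stood from imidacloprid. The Ezh2 values are therefore not particular to control. For Ewsr1 (chr11:5069689-5099266), an RNA-binding protein of the FET family, the downstream end held 83.0 FPKM in control, 88.1 with chlorpyrifos, 62.8 with DDT, 70.0 with rotenone, 65.5 with carbaryl, 63.4 with deltamethrin and 68.1 with imidacloprid. The upstream end, 1539 bases away and annotated in noncoding transcripts, held 6.60 FPKM in control, 31.0 with chlorpyrifos, 42.7 with DDT, 38.6 with rotenone, 55.5 with carbaryl, 39.1 with deltamethrin and 39.0 with imidacloprid. The control value of the upstream end was lower than in each of the 6 exposed libraries, and the share of the downstream end was 92.0% in control and 53.8% to 73.7% elsewhere. The start total of Ewsr1 was 75.6 FPKM in control and 54.5 to 87.2 elsewhere, below the summed end FPKM in all 7 libraries. For Ezh2, the histone methyltransferase of Polycomb complex PRC2, the most distal end held 96.3% in control, 85.3% with chlorpyrifos, 85.0% with DDT, 91.8% with rotenone, 75.3% with carbaryl, 83.8% with deltamethrin and 79.9% with imidacloprid. The rest lay at 3 noncoding ends that differed between libraries: the most proximal reached 8.56 FPKM with carbaryl, the next 11.2 with imidacloprid and the third 6.43 with deltamethrin.

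Scaf4, which binds the tail of RNA polymerase II and is known to prevent early transcript ends, was itself among the genes of widest range. Its coding end held 0.799 FPKM in control and 0.808 with rotenone, against 8.05 with chlorpyrifos, 13.1 with DDT, 12.3 with carbaryl, 9.60 with deltamethrin and 13.9 with imidacloprid. A downstream noncoding end held 8.96 FPKM in control, 8.86 with rotenone and 3.43 with deltamethrin and was not listed elsewhere. Control and rotenone were thus alike for this gene and apart from the other 5 libraries. The start total of Scaf4, 1.9 to 12.9 FPKM, did not follow the end total.

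Genes with known alternative last exons were taken from fixed lists. Of 36 genes of nervous tissue, 8 had 2 or more annotated ends and 4 of them a mean end total of at least 5 FPKM, and 2 of the 4, Gria2 and Pam, had a range of 20 points or more, beside 23.6% of all 1381 genes. Of 20 glial genes, 2 reached that level and 1, Qk, had such a range. Of 25 general examples, 5 reached it and 1, Ezh2, had such a range. The remaining members that reached the level kept 1 end throughout: the main end held at least 93.9% in every library in Ncam1, Cadm1, Tnc, Pabpc1, Ccnd1, Hmgn1 and Tra2b. Of the 36 genes of nervous tissue, 11 had a mean end total of at least 1 FPKM within 0.3 (log2) of their mean start total. In App the mean end total was 0.326 FPKM and the mean start total 68.6. Genes below the level are therefore not read as lacking alternative ends.

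Qk (chr17:10202601-10319854) encodes an RNA-binding protein of glia whose last exons give isoforms with different C-terminal tails. Its middle end held 43.4 FPKM in control, 45.9 with chlorpyrifos, 37.9 with DDT, 59.1 with rotenone, 36.9 with carbaryl, 36.9 with deltamethrin and 40.8 with imidacloprid. Its most downstream annotated end held 39.3 FPKM in control, 31.4 with chlorpyrifos, 39.7 with DDT, 33.1 with carbaryl, 31.4 with deltamethrin and 35.5 with imidacloprid, and 6.94 with rotenone. The rotenone library alone listed an unannotated end of Qk at 39.6 FPKM, so the share of the middle end was 80.5% of annotated ends but 51.9% of all ends there. The most upstream end held 15.6 FPKM in control, 18.4 with DDT, 14.1 with deltamethrin and 13.3 with imidacloprid, against 9e-06 with chlorpyrifos, 0.00247 with rotenone and 4.9e-05 with carbaryl. The most upstream and the middle last exon of Qk end close together, so these 2 ends differ in the splice acceptor.

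Gria2, a subunit of AMPA glutamate receptors, had its most distal annotated end at 8.83 FPKM in control, 14.5 with chlorpyrifos, 15.1 with DDT, 15.2 with rotenone, 22.3 with carbaryl, 21.1 with deltamethrin and 18.5 with imidacloprid. A proximal noncoding end held 8.92 FPKM in control and 0.282 to 1.39 elsewhere, and an unannotated end held 5.62 to 15.2 FPKM in all 7 libraries. Control was thus lowest at the distal end and highest at the proximal one. In Pam, which amidates neuropeptides, the main end held 61.1% to 83.7%, and the most distal end was listed in control (6.36 FPKM), with carbaryl (6.83) and with deltamethrin (4.01) and in no other library. The mean annotated end and start totals did not match in either gene: 19.1 and 29.2 FPKM in Gria2, and 25.8 and 10.8 in Pam.

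Some genes used 2 or more ends in proportions that varied little; the 8 with the narrowest range at a mean main-end share of 50% to 80% were named by rule, and their narrowness is a description. The upstream end of Zfp428, a zinc finger gene, held 48.9% in control, 52.3% with chlorpyrifos, 50.1% with DDT, 49.9% with rotenone, 49.3% with carbaryl, 53.8% with deltamethrin and 52.1% with imidacloprid. Its acceptors lie 39 bases apart. Lamp2 (chrX:38401357-38456454), a lysosomal membrane protein whose last exons encode different cytosolic tails, held 24.6 FPKM at its upstream end in control, 23.5 with chlorpyrifos, 28.3 with DDT, 29.9 with rotenone, 25.4 with carbaryl, 29.3 with deltamethrin and 25.1 with imidacloprid. Its middle end held 13.2, 12, 11.9, 15.9, 15.1, 8.52 and 14.2 FPKM in the same order, and its downstream end 0.021 to 3.53. The share of the upstream end ran from 60.4% to 73.9%. The order of these 3 ends of Lamp2 was the same in all 7 libraries. Top2a, a DNA topoisomerase of dividing cells, used 3 ends in all 7 libraries, the main one at 41.4% to 54.7%. Bex3, a small adaptor protein, used its upstream acceptor at 75.3% to 82.7%. The histone acetyltransferase gene Kat5 kept its distal end at 56% to 67.4%, the small GTPase gene Hras its upstream end at 59.9% to 71.9%, Qsox2, a sulfhydryl oxidase, the end with its upstream acceptor at 73.5% to 84.4%, and Ap1s2, an adaptor of clathrin-coated vesicles, its distal end at 70.7% to 82.8%. Hras kept its proportions although its start total was 7.30 FPKM in control and 39.8 to 43.6 elsewhere.

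The machinery that makes transcript ends was taken from fixed lists as well. Of 22 genes of the core of 3′ processing, 7 had 2 or more annotated ends and 5 the level above. Cpsf1, the large subunit of the cleavage and polyadenylation specificity factor, had the only range over 20 points among these 5 (46.2% to 96.7%, 8 annotated ends), and Nudt21, Cpsf6, Sympk and Pabpc1 kept their main end at 89.2% or more. Of 16 genes of the U1 particle and of early-end control, 3 reached the level, and Scaf4 had a range over 20 points while Snrnp70 and Cdk13 did not. Of 31 RNA-binding regulators of end choice, 6 reached it and 3, Tardbp, Hnrnpk (38.6% to 90.6%) and Qk, had a range over 20 points. Over all 1381 annotated genes at this level, 23.6% had a range of 20 points or more. The list members were named after their values were seen.

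Levels could be compared for 13 of the 22 core 3′ processing genes and 8 of the 31 regulators. The same held for 8 of the 16 genes of the U1 particle and early-end control. The others had a mean end total under 1 FPKM, or no mean start total within 0.3 of it on the log2 scale. Means were taken over the 7 libraries, so the totals of a gene that was kept could differ by more in a single library. A gene's level here is the summed FPKM of its annotated ends, and the difference from control was taken on the log2(FPKM + 1) scale over 6170 genes. A 2-fold difference in either direction was found in 2.16% of them with chlorpyrifos, 2.4% with DDT, 2.07% with rotenone, 2.67% with carbaryl, 2.14% with deltamethrin and 2.33% with imidacloprid. Of the 13 core 3′ processing genes that could be used, 1 was at least 2-fold higher in each comparison but that with deltamethrin, where none was, and none was 2-fold lower. It was Papolg, a poly(A) polymerase, at 0.21 FPKM in control, 4.38 with chlorpyrifos, 4.12 with DDT, 4.36 with rotenone, 3.70 with carbaryl, 0.158 with deltamethrin and 3.95 with imidacloprid, named after its values were seen. The mean end total of Papolg was 2.98 FPKM and its mean start total 3.67, close to the limit of 0.3. Its start totals in single libraries are not given here, so these values describe its listed ends alone. The median difference of these 13 lay between -0.07 and 0.02. Of the 8 genes of the U1 particle and early-end control that could be used, none differed 2-fold. The 8 regulators that could be used had a median difference of -0.33 with chlorpyrifos, where 7 of 8 were lower, and of -0.22 with rotenone, where 8 of 8 were lower. Of these 8, Tardbp (-2.47) and Hnrnpk (-1.0) were at least 2-fold lower with chlorpyrifos and Tardbp (-1.10) with deltamethrin. With rotenone the end total of Tardbp was 62.5 FPKM, well below its start total there, so that lower value is one of the listed ends. With DDT 6 of 8 were lower, with carbaryl 6, with deltamethrin 7 and with imidacloprid 6, and the medians were -0.05, -0.13, -0.17 and -0.06. Over all genes 46.3% to 50.1% were lower, and the medians were -0.00073 to 0.014. Among factors left out whose end total was at least 1 FPKM, a 2-fold difference at the ends was found in some comparison in 1 of 3 core genes (Cpsf6), 3 of 7 genes of the U1 particle and early-end control (Luc7l, Luc7l3 and Scaf8) and 7 of 14 regulators (Mbnl1, Rbfox3, Ptbp1, Ptbp2, Hnrnph1, Celf1 and Khdrbs3). For Celf1 it was 2.16 to 2.48 on the log2 scale in 5 comparisons and -0.34 with imidacloprid, and for Khdrbs3 -3.84 with carbaryl and -0.07 to 0.41 in the others. The end totals of these factors lay further than 0.3 from their start totals, and these differences were not read as levels of the genes. The same share over all genes left out was not computed, so whether these counts differ from it is unknown. The 2.07% to 2.67% given above are for single comparisons of the genes kept and are no background for these counts.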

How the data were processed

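One library per group was sequenced and 7 tables of splicing and transcript-end events were deposited, with values in FPKM computed by the authors. Per the submitters' processing notes, the tools were HISAT2 2.0.1, cutadapt 1.9.1 and bcl2fastq 2.17.1.14 and the build GRCm38. For the program that made the event tables, a name was not given in the sources used here. The tables list events with FPKM above 0, so an end that a table does not list was taken as 0. Depth is unknown and no counts could be used.

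From the deposited FPKM, the share of each end was taken within its gene (the gene identifier of the table) and library, with no pseudocount, for totals of at least 1 FPKM; genes needed a mean total of 5 FPKM. The tables held 0 repeated lines of one end. Inner boundaries of last exons were matched to GENCODE M21. Gene levels used log2(FPKM + 1) and genes with a mean of 1 FPKM whose mean start and end totals over the 7 libraries agreed within 0.3. Python 3.11.15 and pandas 2.3.3 were used, and the calculation was tested on simulated data.

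Signals were searched in the last 50 bases of annotated transcripts not flagged as incomplete, 1 transcript per last exon; printed windows come from the transcript with a signal whose end lies nearest to the deposited one. Named genes, with a single gene name, no predicted model or pseudogene, a mean total of at least 10 FPKM and at least 5 FPKM in every library, were the 12 of widest range, the 3 largest rises and 3 largest falls per insecticide, the 4 on each side in which control stood farthest outside, the gene in which each library stood farthest apart, the 8 narrowest ranges at mean shares of 50% to 80%, and members of the lists of known genes. Each set of ends had its own list, and the text takes examples from them. No test was made, since each group is 1 library. Alternatives were other level minimums, other thresholds, a pseudocount, and other sets of ends and genes. The members and lists were chosen with earlier results of these data known, and the 2 sets restricted to annotated ends were added after the values were seen.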

Additional observations from a re-analysis of the deposited data

How the results depend on the processing

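No paired analysis was possible because each group is 1 library, and no result has a test. The counts below are of genes with a shift of 20 points or more from control, in the order chlorpyrifos, DDT, rotenone, carbaryl, deltamethrin and imidacloprid. With a mean total of at least 1 FPKM they were 278, 272, 271, 300, 293 and 284, with at least 20 FPKM 51, 51, 51, 51, 58 and 50, and with no minimum 540, 505, 526, 547, 547 and 540. The genes compared numbered 2397 to 2414, 857 to 859 and 2945 to 2971 in these settings, against 1842 to 1848 in the main one. Counts from different settings are therefore not shares of the same genes. With a threshold of 10 points they were 319, 311, 322, 321, 307 and 321, and with 40 points 61, 61, 60, 76, 57 and 55. In genes whose start and end totals agreed on average (1392 or 1393 compared) they were 82, 76, 85, 81, 90 and 80. In the set of annotated ends with agreeing starts (823 compared) they were 35, 36, 40, 39, 48 and 46. Against the median of the other 6 libraries in place of control, they were 101, 102, 117, 126, 98 and 93, so that carbaryl and not deltamethrin was highest. The median range of 6.61 points was 10.5 at 1 FPKM, 2.74 at 20 FPKM, 17.7 with no minimum, 27.2 with ends of a mean share of at least 5% alone, 5.01 where totals agreed on average and 4.60 in annotated ends with agreeing starts. The percent of genes with a range of 20 points or more, 24.0%, was 33.7%, 17.7%, 47.4%, 65.4%, 18.7% and 15.4% in the same order, and 19.6% with a pseudocount of 1 FPKM per end. The main end was the most distal in 81.1% of genes at 1 FPKM and in 87.7% of genes with exactly 2 ends. Of the comparisons of a main result with an alternative, 48 stayed within 1.5 times the main count, or within the 95% interval of the main median or percent, and 59 did not. The rule of 1.5 times compared numbers of genes and not shares. With ends of a mean share of at least 5% alone, 136 of 609 genes with chlorpyrifos counted as staying, beside 146 of 1842 in the main setting. The number of fragments is unknown, so what depth limits cannot be given.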
